A study of Rattus norvegicus with 64 samples.

Results

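Levels of 8 genes of corticosteroid signalling and sodium uptake were followed in rat bladders reconstructed with bladder acellular matrix (BAM), with or without seeded cells. They are Hsd11b2 and Hsd11b1, the corticoid receptors Nr3c1 and Nr3c2, the sodium channel subunits Scnn1a, Scnn1b and Scnn1g, and the kinase Sgk1. The members were taken as the array probes whose RefSeq transcript belongs to these symbols, which gave 10 probes for 8 genes, of 30367 probes and 15715 named genes on the array. The set was chosen by the measured level of Hsd11b2, which was much higher with seeded cells at day 7, so every value of the day 7 graft comparison is given here as a description, with no test.

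Corticosterone, the main glucocorticoid of the rat, binds both the glucocorticoid receptor (Nr3c1) and, with higher affinity, the mineralocorticoid receptor (Nr3c2). Hsd11b2 inactivates corticosterone inside the cell and so leaves the mineralocorticoid receptor to aldosterone, while Hsd11b1 mostly works in the other direction and regenerates the active hormone. In tight epithelia, which include the urothelium that lines the bladder, the mineralocorticoid receptor acts on the epithelial sodium channel (ENaC), a channel built of alpha, beta and gamma subunits (Scnn1a, Scnn1b, Scnn1g), partly through Sgk1, a kinase that keeps the channel at the cell surface.

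The RNA came from the reconstructed wall after its separation from native bladder tissue, and was measured on 64 one-color Agilent arrays, 8 biological replicates for each of 8 groups. All rats were syngeneic male Wistar rats that underwent hemicystectomy and received about 1 cm2 of graft. The groups were BAM seeded with 10000000 adipose-derived stromal cells (ASCs, ADSCs in the sample labels) or unseeded BAM, each taken at 7, 30, 90 and 180 days, with 10 rats per group according to the labels. The ASCs were cells of the third passage from retroperitoneal fat of male Wistar donors aged 10 weeks, and no age was used here for the operated rats. No native bladder or sham surgery samples entered the comparisons.

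Levels are log2 of the processed probe signal minus the log2 of the 75th percentile of that array, so 0 is the 75th percentile of its gene spots and 1 unit is a 2-fold difference in signal. Levels of different probes cannot be set against each other. A difference was called where limma's adjusted p over all 30367 probes was below 0.01 and the fold was over 1.5. Each group was hybridized on 1 slide of its own, and the arrays of days 7 and 30 were scanned on another day than those of days 90 and 180, so a slide effect and a group effect cannot be told apart. The share of spots well above background was 73.3% to 95.6% per array at days 7 and 30 and 35.5% to 64.6% at days 90 and 180, and local background was 42 to 52 against 99 to 366 intensity units. No member probe was saturated on any array. All 9 smooth muscle and all 8 fibroblast marker genes on the array were well above background on every array of each day, and of 22 urothelial genes 16 to 21 were, depending on the day. In whole tissue RNA, fewer cells of a type and less RNA per cell cannot be told apart.

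Scnn1b and Scnn1g, which varied closely together, lie next to each other in the genome. In the RefSeq annotation of GRCr8, Scnn1g spans bases 185736225 to 185770099 and Scnn1b bases 185861326 to 185915717 of chromosome 1, 91.2 kb apart. The promoter table held 4 of the 8 members and no entry for Hsd11b2. The 250 bases before the start that the promoter table uses for each of these neighbours are shown because both genes moved together, in lower case with matches to a searched motif in capitals. They are RefSeq sequence of GRCr8, plus strand, Scnn1g at chr1:185735975-185736224 and Scnn1b at chr1:185861126-185861375. The table's start of Scnn1g is the first base of the annotated gene, and that of Scnn1b (185861376) lies 50 bases inside it, so the last 50 bases of the Scnn1b window belong to the annotated gene.
Scnn1g: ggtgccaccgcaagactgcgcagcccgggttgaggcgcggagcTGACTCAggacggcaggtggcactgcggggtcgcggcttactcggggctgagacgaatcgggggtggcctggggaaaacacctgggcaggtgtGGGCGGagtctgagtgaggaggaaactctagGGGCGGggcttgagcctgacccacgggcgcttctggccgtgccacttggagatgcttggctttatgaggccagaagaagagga
Scnn1b: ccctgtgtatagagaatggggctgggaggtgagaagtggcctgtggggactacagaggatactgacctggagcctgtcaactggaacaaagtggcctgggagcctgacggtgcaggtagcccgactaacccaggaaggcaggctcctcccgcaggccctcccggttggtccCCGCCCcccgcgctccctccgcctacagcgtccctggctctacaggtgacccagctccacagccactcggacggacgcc
Both windows are 65.6% G and C, against a median of 51.2% over 33469 rat promoter windows. The capitals in Scnn1g mark AP-1 (TGACTCA), which starts 207 bases before the table's start, and Sp1 (GGGCGG) at 114 and 83 bases before it, all on the strand of the gene. In Scnn1b the capitals mark an Sp1 match on the opposite strand, at 79 bases before the table's start. On either strand, GGGCGG stands in 30.5% and TGACTCA in 4.05% of all windows. The glucocorticoid response hexamer (TGTTCT, in 17.5% of windows), the full palindromic glucocorticoid response element (in 0.0359%) and a grainyhead-like motif (AACCGGTT, in 0.146%) were also searched, with no match in these letters.

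Hsd11b2 was the member with the largest SD between arrays of a group when pooled over the 8 groups. At day 7 its level with ASCs ran from -2.30 to 2.13 with a median of 0.85 (mean 0.44 ± 1.62, SD, n = 8). With unseeded BAM it ran from -4.46 to -0.15 with a median of -2.75 (mean -2.66 ± 1.44, SD, n = 8). The groups overlapped, and 5 of 8 seeded arrays lay above every unseeded array. The difference of 3.10 on the log2 scale (SE 0.667), or 8.57-fold, is the value that chose the set. Leaving out any of the 16 arrays moved it between 2.84 and 3.49.

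At day 30 Hsd11b2 ran from -2.19 through a median of -0.71 to 2.35 with ASCs (mean -0.09 ± 1.71, SD, n = 8). With unseeded BAM it ran from -2.39 through -1.53 to -0.40 (mean -1.55 ± 0.65, SD, n = 8). Only 3 of 8 seeded arrays lay above all unseeded ones, and the difference of 1.47 (95% interval 0.13 to 2.80) was not called (limma adjusted p = 0.153). At day 90 the seeded arrays ran from -1.57 through -0.40 to 3.25 (mean 0.03 ± 1.57, SD, n = 8) and the unseeded arrays from -4.02 through -1.05 to 0.53 (mean -1.13 ± 1.38, SD, n = 8). The difference there was 1.16 (interval -0.18 to 2.49, limma adjusted p = 0.157), and without unseeded replicate 5, the lowest array, it was 0.75 (limma adjusted p = 0.363). At day 180 the order of the means was the opposite, with seeded arrays from -2.02 through -1.26 to 1.31 (mean -0.78 ± 1.16, SD, n = 8) and unseeded arrays from -0.78 through -0.27 to 2.04 (mean 0.11 ± 0.97, SD, n = 8). This difference of -0.89 (interval -2.22 to 0.45) was not called either (limma adjusted p = 0.679). The graft difference at day 180 minus that at day 90 was -2.05 (interval -3.93 to -0.16), also not called (limma adjusted p = 0.103).

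**Figure D1:**
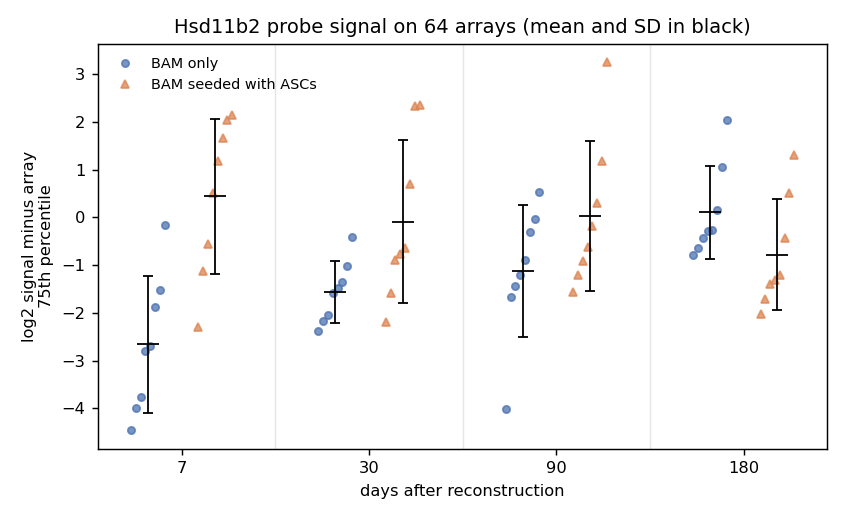
Hsd11b2 level on each of the 64 arrays by day after reconstruction, on the log2 scale relative to each array's 75th percentile, with circles for BAM only, triangles for BAM seeded with ASCs, and the mean and SD in black. The unseeded arrays of day 7 lie lowest, with a mean of -2.66, and the ranges of seeded and unseeded arrays overlap at every day.

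Ordered by mean, the Hsd11b2 groups ran from seeded day 7 (0.44) through unseeded day 180, seeded day 90, seeded day 30, seeded day 180, unseeded day 90 and unseeded day 30 to unseeded day 7 (-2.66). Every neighbouring pair in that order overlapped, and no gap between neighbours exceeded the larger SD of the pair. In unseeded BAM the mean changed by 1.1 from day 7 to 30 (a description, since day 7 chose the gene), by 0.42 from day 30 to 90 (limma adjusted p = 0.595) and by 1.24 from day 90 to 180 (limma adjusted p = 0.181). In seeded BAM the same steps were -0.53 (a description), 0.12 (limma adjusted p = 0.897) and -0.81 (limma adjusted p = 0.424). The SD between arrays of a group, pooled over the 8 groups, was 1.36 for Hsd11b2, at the 98.7th percentile of all probes, whose median was 0.52. Its probe was well above background on 63 of 64 arrays.

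Over all members, none of 8 was called between grafts at day 30, where 1.67% of all probes were called. At an unadjusted p below 0.05 there were 5 of 8. No share of all probes is given at that threshold, so no excess is read from this count. The unmoderated two-way fit of graft and day in the methods also called 0. At day 90 only Scnn1a, 1 of 8, was called, against 12.5% of all probes (8.6% lower). At day 180 there were 0 of 8, with 0 at an unadjusted p below 0.05 and 0 by the unmoderated fit, against 2.44% of all probes. The median difference of all probes was -0.16, 0.11, -0.27 and 0.06 at days 7, 30, 90 and 180.

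**Figure D2:**
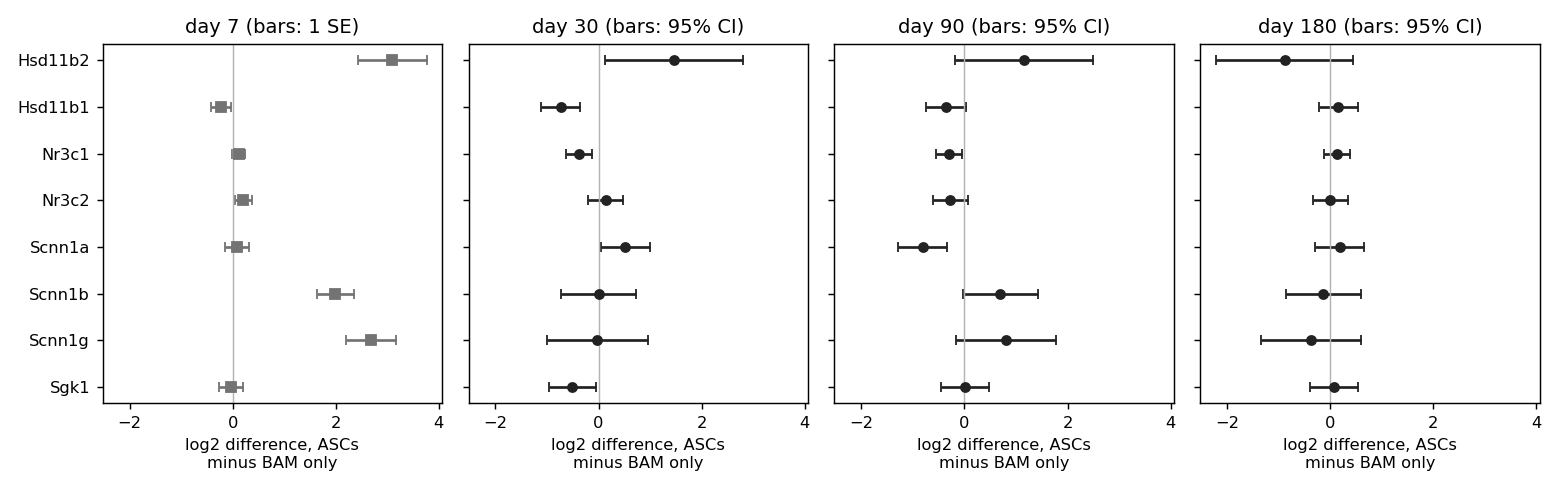
Difference in level (log2, ASC-seeded minus unseeded BAM) of each member at days 7, 30, 90 and 180, with bars of 1 SE at day 7, where values are descriptive, and of 95% confidence intervals at the other days. Hsd11b2 (3.10), Scnn1g (2.69) and Scnn1b (1.99) stand to the right at day 7, and Scnn1a at day 90 (-0.81) is the single called difference of the later days.

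Hsd11b1, which regenerates active glucocorticoid, differed little at day 7, with means of 0.05 ± 0.31 (SD, n = 8) with ASCs and 0.27 ± 0.36 (SD, n = 8) without. At day 30 its seeded arrays ran from -0.15 through a median of 0.52 and its unseeded arrays from 0.47 through a median of 1.29, with means of 0.47 ± 0.35 and 1.21 ± 0.38 (SD, n = 8 each). The ranges overlapped, with 3 of 8 seeded arrays below every unseeded one. The difference of -0.73 (SE 0.190, interval -1.11 to -0.35), 1.66-fold lower with ASCs, just missed the adjusted threshold (limma adjusted p = 0.0115). It passed with normexp background correction (-0.77, limma adjusted p = 0.00473), and when dim probes were left out (limma adjusted p = 0.00900). At day 30 the means of the 2 enzymes therefore stood in opposite order between the grafts, Hsd11b2 higher by 1.47 and Hsd11b1 lower by 0.73 with ASCs, neither of them called. Later differences of Hsd11b1 were -0.36 at day 90 (limma adjusted p = 0.124) and 0.15 at day 180 (limma adjusted p = 0.894).

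Over time in unseeded BAM, Hsd11b1 rose by 0.94 from day 7 to 30 (limma adjusted p = 1.46e-04), with 5 of 8 arrays of day 30 above all of day 7. It then fell by 0.76 from day 30 to 90 (limma adjusted p = 4.53e-04). With ASCs the corresponding steps were 0.43 (limma adjusted p = 0.0779) and -0.38 (limma adjusted p = 0.0855), neither called. The peak in unseeded BAM at day 30 was the highest of its 8 group means.

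Nr3c1, the glucocorticoid receptor, had its lowest means at day 7, -2.65 ± 0.15 (SD, n = 8) in unseeded and -2.53 ± 0.37 (SD, n = 8) in seeded BAM. In unseeded BAM it rose by 1.05 to day 30 (interval 0.80 to 1.30, 2.07-fold, limma adjusted p = 3.78e-09), from a range of -2.87 to -2.47 to a range of -1.91 to -1.44, with no overlap. In seeded BAM the step was 0.55 (1.46-fold, limma adjusted p = 9.66e-04), under the fold threshold, which it passed without seeded replicate 1 or 8 of day 7 or without seeded replicate 2 or 7 of day 30, at 0.59 to 0.63. The graft differences were -0.39 at day 30 (limma adjusted p = 0.0431), -0.29 at day 90 (limma adjusted p = 0.0585) and 0.12 at day 180 (limma adjusted p = 0.828), none of them called. A second, dimmer Nr3c1 probe, well above background on 51 of 64 arrays against 62 for the brighter, also had every day 30 array above every day 7 array in unseeded BAM, by 0.57 (limma adjusted p = 0.0249). From day 90 to 180 in unseeded BAM the brighter probe differed by -0.29 (limma adjusted p = 0.0902), and the dimmer one was well above background on just 3 of 8 arrays at day 180, so no difference is given for it. Deviations of the paired probes from their group means had r = 0.267 over 64 arrays, given as a description.

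Nr3c2, the mineralocorticoid receptor that Hsd11b2 shields, rose step by step to day 90 in both grafts. In unseeded BAM it ran from -4.32 through a median of -3.59 at day 7, from -2.77 through -2.47 at day 30 and from -1.87 through -1.26 at day 90. The means were -3.60 ± 0.37, -2.54 ± 0.14 and -1.29 ± 0.35 (SD, n = 8 each), and the 3 ranges did not overlap. The steps were 1.06 (2.08-fold, limma adjusted p = 2.33e-06) and 1.25 (2.38-fold, limma adjusted p = 5.07e-09). With ASCs the means were -3.39 ± 0.33, -2.40 ± 0.56 and -1.56 ± 0.21 (SD, n = 8 each), with steps of 0.99 (1.98-fold, limma adjusted p = 1.22e-05) and 0.84 (1.79-fold, limma adjusted p = 4.16e-05). From day 90 to 180 it changed by -0.31 without (limma adjusted p = 0.183) and by -0.04 with ASCs (limma adjusted p = 0.894). The first step in unseeded BAM was 0.58 under normexp (limma adjusted p = 0.00294), below 1.5-fold, and the second step in each graft spans the change of scan day.

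Between grafts Nr3c2 differed by 0.21 at day 7 as a description, by 0.14 at day 30 (interval -0.20 to 0.47), by -0.27 at day 90 (interval -0.61 to 0.06) and by 0.00 at day 180 (interval -0.34 to 0.34). None of the tested 3 was called, with limma adjusted p from 0.182 to 1.00. A dimmer Nr3c2 probe was well above background on 7 of 64 arrays, so its differences are not given, and had r = 0.410 with the brighter one within groups.

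**Figure D3:**
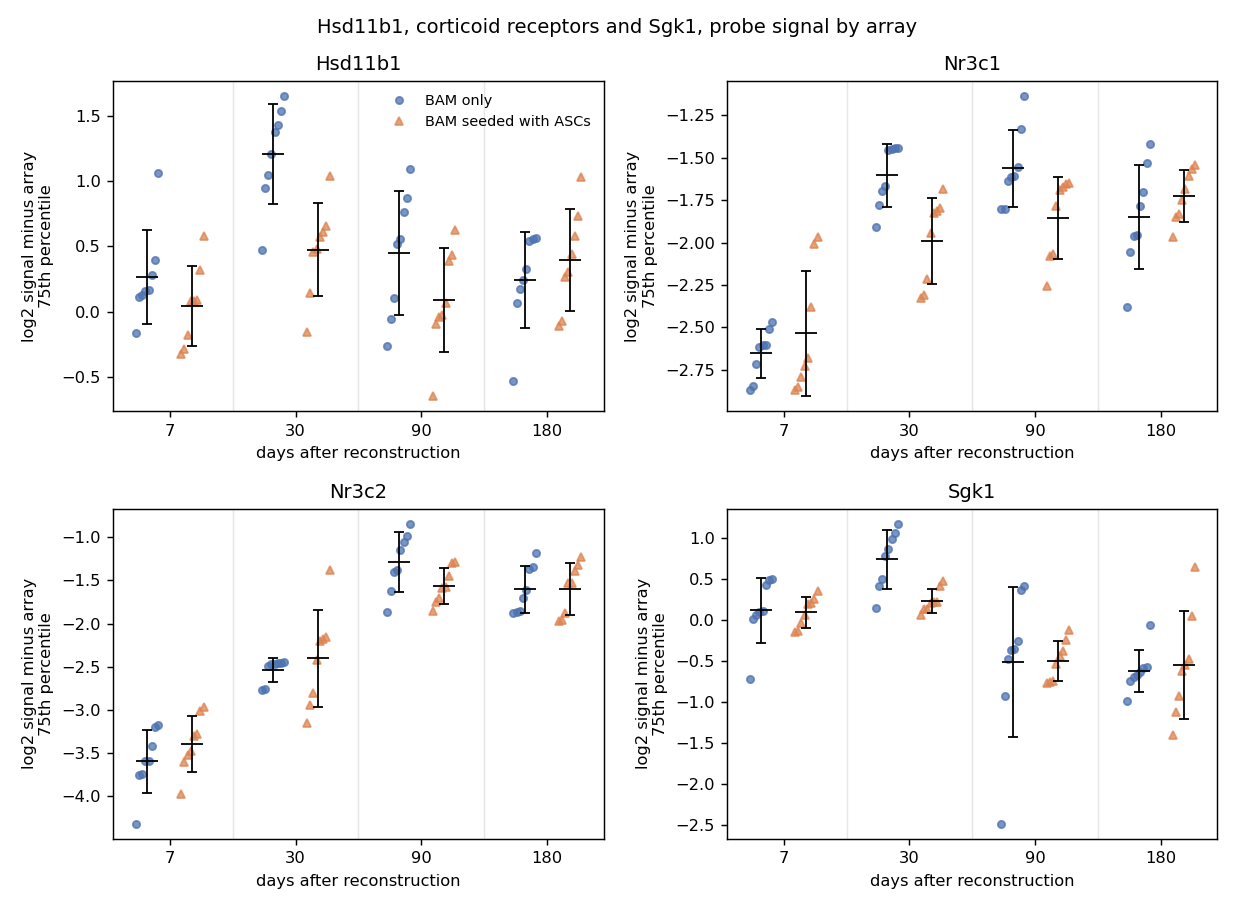
Levels of Hsd11b1, Nr3c1, Nr3c2 and Sgk1 on each array by day, on the log2 scale relative to each array's 75th percentile, with circles for BAM only, triangles for BAM seeded with ASCs, and mean and SD in black. Nr3c2 climbs from means of -3.60 and -3.39 at day 7 to -1.29 and -1.56 at day 90, and Hsd11b1 is highest in BAM only at day 30 (1.21).

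Scnn1b and Scnn1g, the beta and gamma subunits, were low in unseeded BAM at day 7 and higher in all other groups. Scnn1b at day 7 ran from -3.58 through a median of -0.91 to -0.40 with ASCs and from -4.53 through -3.46 to -1.80 without. Scnn1g ran from -1.87 through -0.04 to 0.73 with ASCs and from -5.19 through -2.81 to -0.49 without. For each of them 6 of 8 seeded arrays lay above every unseeded array. The descriptive differences were 1.99 (3.98-fold) for Scnn1b and 2.69 (6.46-fold) for Scnn1g, and with any array left out they stayed between 1.82 and 2.32 and between 2.36 and 3.03.

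By day 30 the graft difference was 0.00 for Scnn1b (interval -0.73 to 0.73, limma adjusted p = 1.00) and -0.02 for Scnn1g (interval -0.997 to 0.95, limma adjusted p = 0.983). The unseeded arrays had risen by 2.24 for Scnn1b (4.74-fold, limma adjusted p = 3.61e-06) and by 3.49 for Scnn1g (11.2-fold, limma adjusted p = 1.42e-07). All 8 unseeded arrays of day 30 lay above all of day 7 for Scnn1g, and 7 of 8 for Scnn1b. The day 7 arrays of these steps are those of the comparison that chose Hsd11b2, with which both subunits vary. In seeded BAM the steps were 0.25 (limma adjusted p = 0.615) and 0.77 (limma adjusted p = 0.217). Whether the steps differed between grafts was not tested, since that test contains the day 7 comparison.

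From day 30 to 90 Scnn1b rose by 1.18 with ASCs (2.27-fold, limma adjusted p = 0.00594), with no overlap. The call was lost without seeded replicate 2 or 7 of day 30 or without seeded replicate 3 or 6 of day 90, at 0.96 to 1.13. Scnn1g differed by 1.29 over the same step (2.44-fold, limma adjusted p = 0.0239), not called. In unseeded BAM they differed by 0.49 (limma adjusted p = 0.241) and 0.46 (limma adjusted p = 0.420). At day 90 the graft differences were 0.69 for Scnn1b (limma adjusted p = 0.123) and 0.81 for Scnn1g (limma adjusted p = 0.176). Unseeded replicate 5 of day 90 was the lowest array for both, at -2.90 and -1.86, and without it they were 0.36 (limma adjusted p = 0.398) and 0.39 (limma adjusted p = 0.5). At day 180 they were -0.14 (limma adjusted p = 0.999) and -0.37 (limma adjusted p = 0.910).

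Scnn1a, the alpha subunit, was dim, well above background on all arrays of days 7 and 30, on 0 of 8 seeded and 1 of 8 unseeded arrays at day 90, and on none at day 180. At day 7 its means were -4.33 ± 0.57 with and -4.42 ± 0.16 without ASCs (SD, n = 8 each), and at day 30 they were -4.05 ± 0.52 and -4.57 ± 0.14 (limma adjusted p = 0.153). At day 90 the seeded arrays ran from -5.79 through -5.28 and the unseeded arrays from -5.42 through -4.79, with means of -5.29 ± 0.29 and -4.49 ± 0.92 (SD, n = 8 each). The ranges overlapped, with 3 of 8 seeded arrays below every unseeded one. The difference of -0.81 was called (limma adjusted p = 0.00747) although the probe was well above background on just 1 of the 16 arrays, an unseeded one, so no fold is given. Local background at day 90 averaged 108.2 intensity units on seeded and 345.3 on unseeded arrays, and its part in this call was not tested. The difference was -0.10 under normexp (limma adjusted p = 0.771) and 0.11, in the other direction, under quantile normalization (limma adjusted p = 0.836), and the call was lost when any of 9 single arrays was left out. The graft difference at day 90 minus that at day 30 was -1.33 (limma adjusted p = 0.00306, 9.99% of all probes called), but -0.32 under normexp (limma adjusted p = 0.469) and -0.08 under quantile normalization (limma adjusted p = 0.917). In seeded BAM the level on this scale fell by 1.24 from day 30 to 90 with no overlap (limma adjusted p = 1.91e-05). The probe was well above background on 0 of 8 seeded arrays at day 90, so no fold or bound is given. This call too was lost under normexp (-0.07, limma adjusted p = 0.732) and quantile normalization (-0.57, limma adjusted p = 0.139).

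**Figure D4:**
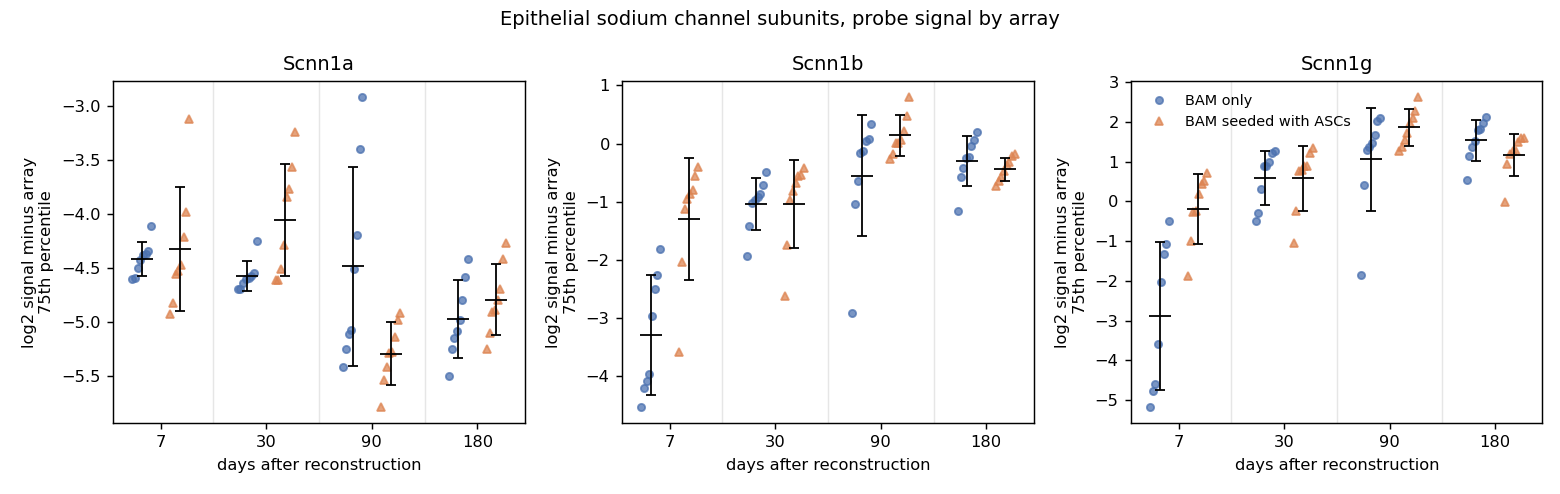
Levels of the sodium channel subunits Scnn1a, Scnn1b and Scnn1g on each array by day, on the log2 scale relative to each array's 75th percentile, with circles for BAM only, triangles for BAM seeded with ASCs, and mean and SD in black. Scnn1b and Scnn1g are lowest in BAM only at day 7 (means -3.28 and -2.88), whereas Scnn1a lies below -2.9 on every array.

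Sgk1, the kinase downstream of both receptors, had no called graft difference. Its differences were -0.03 at day 7 as a description, -0.51 at day 30 (interval -0.97 to -0.05, limma adjusted p = 0.151), 0.01 at day 90 (interval -0.45 to 0.47, limma adjusted p = 0.973) and 0.07 at day 180 (interval -0.39 to 0.53, limma adjusted p = 0.999). It fell from day 30 to 90 in both grafts. In unseeded BAM the mean went from 0.74 ± 0.36 to -0.51 ± 0.91 (SD, n = 8 each), a step of -1.25 (limma adjusted p = 4.72e-06) that was -0.97 without unseeded replicate 5 of day 90 (limma adjusted p = 1.89e-05). In seeded BAM it went from 0.23 ± 0.14 to -0.50 ± 0.25 (SD, n = 8 each), a step of -0.73 with no overlap (limma adjusted p = 0.00724), which was -0.64 under normexp (limma adjusted p = 0.0109) and missed the threshold when any of 9 single arrays was left out, at -0.73 to -0.69.

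Counted over healing in unseeded BAM, 5 of 7 tested members rose from day 7 to 30 and none fell, against 8.65% of all probes called (4.44% higher). The arrays of these days did not overlap for 3 of 7 members (Nr3c1, Nr3c2 and Scnn1g), against 6.11% of all probes. Scnn1b and Scnn1g, among the members counted, vary with Hsd11b2, which was chosen on these day 7 arrays. No excess over all probes is therefore read from these counts. From day 30 to 90, 1 of 8 rose (Nr3c2) and 2 fell (Hsd11b1 and Sgk1), against 44.7% of all probes, and arrays did not overlap for 1 of 8 (Nr3c2), against 31.7%. In seeded BAM 1 of 7 rose from day 7 to 30 (Nr3c2), against 8.06%. From day 30 to 90, 2 rose (Nr3c2 and Scnn1b) and 2 fell (Scnn1a and Sgk1), against 28.1%, and arrays did not overlap for 3 of 8 (Scnn1a, Scnn1b and Sgk1), against 14.6%. Of these, Scnn1a was well above background on 0 of 8 seeded arrays at day 90. Its fall was not called under normexp or quantile normalization. From day 90 to 180 the count was 0 of 8 in unseeded BAM, with 2 at an unadjusted p below 0.05 and 0 by the unmoderated fit, against 9.39%. In seeded BAM it was also 0 of 8, with 1 at an unadjusted p below 0.05 and 0 by the unmoderated fit, against 4.14%. For the graft difference at day 180 minus that at day 90 it was 0 of 8, with 3 at an unadjusted p below 0.05, against 9.79%. The percentages are shares called at the adjusted threshold. None is given for an unadjusted p below 0.05, so no excess is read from those counts. The unseeded arrays of day 30 serve as baseline or end point in several of these comparisons, which are therefore not independent.

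Array by array within groups, Hsd11b2 varied with the beta and gamma subunits and with urothelial genes. Deviations from the group mean were compared over the 64 arrays with a two-sided permutation test within groups, 100000 permutations, and Benjamini-Hochberg adjustment over 8 relations. With Scnn1b Pearson's r was 0.661 (permutation p = 1e-05, the smallest these permutations can give, adjusted p = 2.67e-05) and Spearman's rho was 0.452 (permutation p = 5.60e-04). With Scnn1g r was 0.606 (permutation p = 1e-05, adjusted p = 2.67e-05) and rho was 0.396 (permutation p = 0.00240). Without the pair of arrays farthest from the median of Hsd11b2, seeded replicate 3 and unseeded replicate 5 of day 90, r was 0.610 with Scnn1b and 0.549 with Scnn1g. Over the 48 arrays of days 30 to 180, which did not choose Hsd11b2, r was 0.519 (permutation adjusted p = 0.00304) and 0.463 (permutation adjusted p = 0.00787). In single groups r ranged from -0.30 to 0.91 for Scnn1b and from -0.04 to 0.93 for Scnn1g, and was positive in 7 of 8 groups for each.

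The other members did not pass in this test. The value of r was -0.270 with Hsd11b1 (permutation adjusted p = 0.0778, rho -0.161, permutation p = 0.237), and -0.421 over days 30 to 180 (permutation adjusted p = 0.00900). It was -0.178 with Nr3c1 (permutation adjusted p = 0.326, rho -0.158), -0.118 with Nr3c2 (permutation adjusted p = 0.494, rho -0.185), 0.072 with Scnn1a (permutation adjusted p = 0.624, rho 0.131) and 0.118 with Sgk1 (permutation adjusted p = 0.478, rho -0.098). Without the farthest pair of arrays, r with Hsd11b1 was -0.152. As a description over the same 64 arrays of shared slides, Scnn1b and Scnn1g had r = 0.8995 with each other, while Scnn1a had r = 0.242 with Scnn1b and 0.174 with Scnn1g.

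Urothelial genes varied with Hsd11b2 within groups, and between grafts their differences are set beside those of Hsd11b2 as a description. The list held 22 measured genes, among them the uroplakins of the apical membrane, keratins and junction proteins, and their mean level had r = 0.619 with Hsd11b2 (permutation p = 1e-05, adjusted p = 2.67e-05) and rho = 0.619 (permutation p = 1e-05). It was 0.551 without the farthest pair of arrays and 0.552 over days 30 to 180 (permutation adjusted p = 4.00e-04), and positive in 7 of 8 groups. Single genes had r from -0.16 to 0.72 with a median of 0.53, against a median of -0.05 over 11274 ranked genes. At day 7 the mean level of the list was 1.20 ± 0.38 with ASCs (range 0.46 to 1.55) and -0.57 ± 1.43 without (range -3.27 to 1.02, SD, n = 8 each). The array with the lowest Hsd11b2 was also lowest for the list in each of these day 7 groups, and likewise for the highest. This did not hold in every group. In unseeded BAM at day 30, replicate 2 had the highest Hsd11b2 and the lowest list level. In single groups r of the list with Hsd11b2 ranged from -0.05 to 0.95. The part of urothelial genes in the Hsd11b2 result was not tested.

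**Figure D5:**
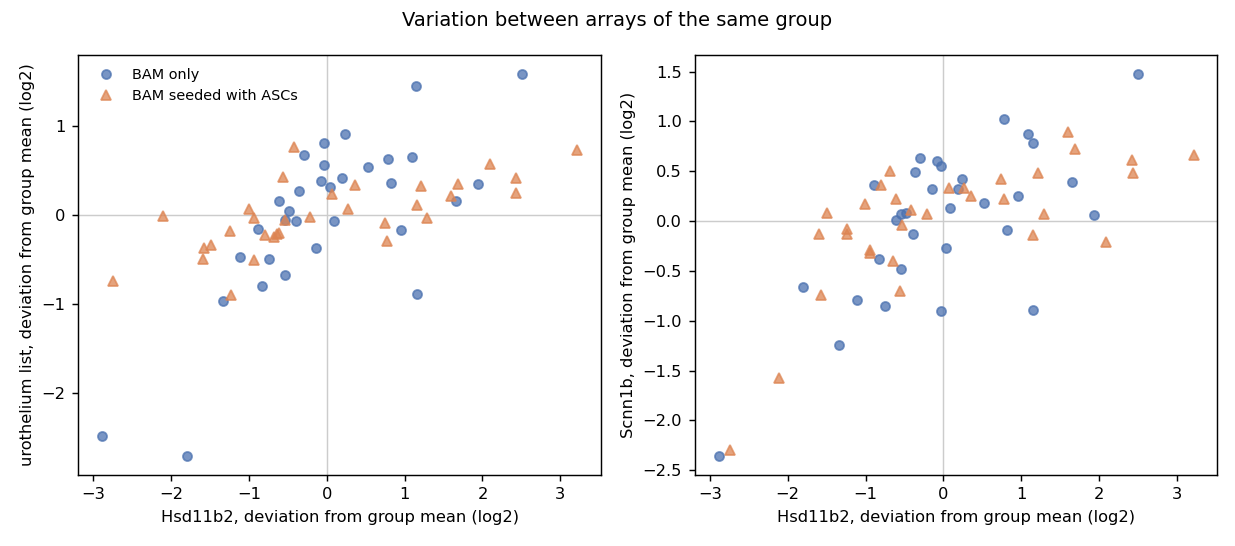
Deviation of Hsd11b2 from its group mean (x axis, log2) against that of the mean of 22 urothelial genes (left) and of Scnn1b (right) over 64 arrays, with circles for BAM only and triangles for BAM seeded with ASCs. Both panels rise from lower left to upper right (r = 0.619 and 0.661), and an array of BAM only at day 90 lies at the lower left in each.

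Between grafts the urothelial list had medians of 1.89, 1.07, 0.63 and -0.25 at days 7, 30, 90 and 180, in the same order as the Hsd11b2 differences of 3.10, 1.47, 1.16 and -0.89. This shared order is only a description, since the day 7 value chose Hsd11b2 and no later Hsd11b2 difference was called. The single genes were higher with ASCs in 21 of 22 at day 7, 22 of 22 at day 30, 20 of 22 at day 90 and 6 of 22 at day 180. At day 7, as a description, Upk2 was higher by 2.87, Epcam by 2.60, Upk1a by 2.36 and Upk3a by 2.28, and the basal regulator Tp63 (-0.07) and the superficial cell keratin Krt20 (0.02) hardly differed. Of the 22, 2 were called higher at day 30, the claudin Cldn3 (4.58, limma adjusted p = 4.66e-04) and the epithelial factor Foxa1 (1.04, limma adjusted p = 0.00161), and none at days 90 and 180. At day 30 the list level was 1.99 ± 0.32 with and 0.85 ± 0.56 without ASCs. At day 90 it was 1.94 ± 0.35 and 1.29 ± 1.11, and at day 180 it was 1.57 ± 0.55 and 1.79 ± 0.29 (SD, n = 8 each). Unseeded replicate 5 of day 90 was lowest of its group for the list as well, at -1.19. Without that array the unseeded mean was 1.64 ± 0.52 (SD, n = 7) and the median of the gene differences at day 90 was 0.23.

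Genes most like Hsd11b2 were ranked as a description, among 11274 named genes measured well above background on all arrays of at least 1 day. By deviations within groups over 64 arrays they were Gdpd3 (r = 0.801), Bcas1 (0.779), Acer2 (0.776), Gpld1 (0.764) and Acsl3 (0.756). Scnn1b ranked 48 and Scnn1g 121 in this order, and the uroplakins Upk2 11 and Upk1a 35. By the 8 group means they were Ankrd22 (r = 0.987), Elovl6 (0.984), Ly6g6e (0.976), Krt7 (0.938) and Cpt2 (0.938).

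Of 24 measured genes that act on the channel or on sodium transport, none was called between grafts at day 30, 1 was higher at day 90 and 1 higher at day 180, with medians of 0.23, 0.01 and 0.04. The called genes were Stk39, a kinase of salt transport (0.70 at day 90, limma adjusted p = 9.99e-04), and Wnk4, a kinase upstream of it (1.01 at day 180, limma adjusted p = 4.81e-05). At day 7, as a description, the median was 0.18, and the channel-activating protease Prss8 was higher by 2.27 with ASCs. The protease inhibitors Spint1 and Spint2 were higher by 1.76 and 1.30, and the sodium pump modulator Fxyd3 by 1.77. Prss8, Spint1 and Fxyd3 differed by 0.88, 1.12 and 1.04 at day 30 and by 0.75, 0.80 and 0.74 at day 90, none of them called. For this and every other list, the shares of all probes called are to be set beside the counts. They were 1.67% at day 30, 12.5% at day 90 (3.88% higher and 8.6% lower) and 2.44% at day 180 (2.4% higher).

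Among 20 glucocorticoid response genes no list member was called at days 30 and 180 and 1 was lower at day 90, with medians of -0.35, 0.12 and -0.18, and -0.48 at day 7 as a description. The gene at day 90 was Per1 (-0.70, limma adjusted p = 0.00643), which was well above background on none of the 16 arrays, so it has no measured level there. Fkbp5, a chaperone of the receptor and a common readout of glucocorticoid exposure, differed by 0.16, -0.41, -0.35 and 0.36 at days 7, 30, 90 and 180, and Tsc22d3, another direct target, by 0.20, -0.71, -0.48 and 0.07. None of the tested 6 values was called.

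Of 18 other genes of steroid synthesis, conversion and transport, 0 were called at day 30, 1 higher and 1 lower at day 90 and 1 higher at day 180. They were Cyp11a1, the first enzyme of steroid synthesis (1.497 at day 90, limma adjusted p = 9.24e-04, well above background on all seeded and 4 of 8 unseeded arrays), the efflux pump gene Abcb1b (-1.04, limma adjusted p = 0.00337) and the steroid 21-hydroxylase gene Cyp21a1 (0.64 at day 180, limma adjusted p = 0.00663). At day 7, as a description, Hsd17b2, which inactivates sex steroids, was higher by 3.08 with ASCs and the 5-alpha-reductase Srd5a1 by 1.55, while Star was lower by 1.95 and Cyp11b1 by 1.27. Among 11 receptor chaperones and cofactors, Hspa8 was higher at day 90 (1.25, limma adjusted p = 6.26e-09) and Ncoa2 at day 180 (0.82, limma adjusted p = 3.98e-04), and none at day 30. Hspa8 was very bright at day 90, at 6.08 ± 0.31 with and 4.83 ± 0.51 without ASCs (SD, n = 8 each). It differed by -0.22 at day 30 and by 0.16 at day 180. Whether its spots were saturated at day 90, and the part of this in the difference, was not tested. Of 6 other steroid receptors none was called at the later 3 days.

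Markers of other tissue components were counted in the same way. At day 30 none of them was called. At day 90, 3 of 9 smooth muscle genes were higher with ASCs (Myh11 1.09, Tagln 1.00 and Actg2 1.00), as were 3 of 8 fibroblast genes (Col1a2 1.02, Dcn 0.76 and Col1a1 0.75) and 1 of 9 leukocyte genes (Lyz2 0.81), and 1 of 6 endothelial genes was lower (Cdh5 -0.87). Several of these genes were very bright at day 90, among them Tagln (5.85 with and 4.85 without ASCs), Actg2 (6.04 and 5.05) and Col1a2 (5.90 and 4.87). The 75th percentile used for scaling was 768.5 to 1337 intensity units on seeded and 959.4 to 3148 on unseeded arrays of day 90. Saturation is given here only for member probes, and its part in these differences was not tested. At day 180 none of these markers was called. None of 5 adipocyte, 4 mesothelial, 7 skeletal muscle and 6 male accessory gland genes was called at days 30, 90 and 180. At day 7, as a description, the medians were 0.49 for smooth muscle, -0.16 for fibroblast, -0.40 for leukocyte and -0.62 for endothelial genes, against 1.89 for the urothelial list. Their part in the members' results was not tested.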

How the data were processed

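Total RNA of reconstructed bladder walls was labelled with Cy3 and hybridized to one-color rat arrays of 62976 spots. The authors deposited Agilent Feature Extraction 12.0.1.1 output per array, whose background-corrected signal per spot is a linear intensity, and a series matrix of the same intensity, used as an alternative because 61 of 64 columns agreed within 0.01 on the log2 scale. The deposited tables held 0 columns of other series. Control spots and outlier-flagged spots were left out, spots of a probe were averaged after log2, and each array was scaled to its 75th percentile over 58717 gene spots. No array was identical to another. The number of arrays limits the precision. Probes were named through RefSeq accessions and the GRCr8 gene table (18758 of 30367 probes, 15715 genes), and the probe with the highest mean stood for a gene.

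limma 3.58.1 (R 4.3.3) fitted 8 group means over 64 arrays, which share 1 estimate of the spread, with eBayes and Benjamini-Hochberg adjustment. The fit was tested on simulated data. Correlations and tables were made in Python 3.11.15 with scipy 1.17.1. Alternatives were normexp (offset 50) on foreground and local background signals, quantile normalization, the 75th percentile over 8583 probes detected on all arrays, the series matrix, outlier spots kept, dim probes left out, each other probe of a gene, a 2-fold threshold, unadjusted p, the two-way model of the methods without moderated variances, each day alone, the replicate number as a block, each array left out in turn (for comparisons between days chosen after seeing the data), and, for correlations, Spearman's rho and arrays of day 7 left out. Array numbers were not treated as pairs, since the labels name no shared animal or day.

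The members, the 14 gene lists and the naming rule were chosen with earlier results of these data known. Named were all members with every probe, from each list up to 4 genes per day with the largest called differences measured on all arrays of a group, Tp63, Krt20, Fkbp5, Tsc22d3 and the later values of Prss8, Spint1 and Fxyd3 outside this rule after their values were seen, and the 5 genes most like Hsd11b2 by each measure. The labels give 10 rats per group, of which 8 were hybridized. Genes of the lists with no named probe were not analysed here.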

Additional observations from a re-analysis of the deposited data

Results flagged for a closer look

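Among 80 groups of 8 arrays (10 member probes in 8 groups), 13 held an array whose gap to the nearest other was a large part of the group's range, where chance gives about 1 in 20 groups. Unseeded replicate 5 of day 90 stood apart for 3 members, Scnn1b at -2.90 (the others -1.03 to 0.33), Scnn1g at -1.86 (0.41 to 2.10) and Sgk1 at -2.49 (-0.93 to 0.41), and was also the lowest array of its group for Hsd11b2 (-4.02) and the urothelial list (-1.19). Without it the day 90 graft difference of Sgk1 was -0.27 (limma adjusted p = 0.252) in place of 0.01.

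Unseeded replicate 2 of day 7 stood apart for Hsd11b1 at 1.06 (the others -0.16 to 0.39) and for Sgk1 at -0.73 (0.01 to 0.50). Single arrays were flagged for Hsd11b1 in unseeded replicate 3 of day 180 at -0.53 (the others 0.07 to 0.56), for Scnn1a in unseeded replicate 7 of day 30 at -4.25 (-4.70 to -4.54), for Scnn1g in seeded replicate 7 of day 180 at -0.02 (0.93 to 1.60) and for Sgk1 in unseeded replicate 5 of day 180 at -0.07 (-0.99 to -0.58). The dimmer Nr3c1 probe had unseeded replicate 8 of day 90 at -1.35 (the others -3.64 to -2.85). The dimmer Nr3c2 probe had unseeded replicate 7 of day 7 at -4.40 (-8.19 to -7.04), seeded replicate 4 of day 90 at -3.73 (-5.92 to -5.18) and unseeded replicate 8 of day 90 at -3.35 (-5.69 to -4.96). Unseeded replicate 8 of day 90 also had the lowest share of spots well above background of all arrays, 35.5%. Its 75th percentile was the lowest of its group, 959.4 against up to 3148 intensity units, and its Scnn1a level was -3.40, not well above background.

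The graft difference of Scnn1a changed between days 30 and 90, by -1.33 on the log2 scale (limma adjusted p = 0.00306). Its probe was well above background on all arrays of day 30 and on 1 of 16 at day 90. Local background was higher on the arrays of day 90 and differed there between grafts. It averaged 345.3 ± 14.3 intensity units on unseeded and 108.2 ± 7.0 on seeded arrays of day 90 (SD, n = 8 each). Their part in the result was not tested.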

How the results depend on the processing

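The count of members called between grafts at day 30 went from 0 to 1 (Hsd11b1) with normexp, with dim probes left out and with unadjusted p at the same thresholds, and ranged from 0 to 1 over the 16 fits that left out an array (1 without seeded replicate 5 and without unseeded replicate 7). At day 90 it went from 1 (Scnn1a) to 0 with normexp, quantile normalization, the percentile over detected probes, dim probes left out, the 2-fold threshold, the replicate block and the day fitted alone, and ranged from 0 to 1 with an array left out (0 without seeded replicates 3, 5, 6, 7 or 8, or without unseeded replicates 3, 4, 6 or 8). Scnn1a at day 90 was 0.11 with quantile normalization, the opposite direction. From day 30 to 90 in seeded BAM 2 members in place of 4 were called with normexp (Nr3c2 and Scnn1b). For the change of the graft difference from day 30 to 90 the count went from 1 to 0 with normexp and with quantile normalization. The correlation of Hsd11b2 with Hsd11b1 passed over days 30 to 180 (-0.421) and with normexp (-0.303, permutation adjusted p = 0.0389). The causes of these changes were not tested, except that leaving probes or arrays out changes what is tested and that another threshold or an unadjusted p is a change of rule. Under these alternatives the other counts of members called stayed within 1.5 times their value. The Hsd11b2 difference at day 7, which chose the set, ranged from 2.84 to 3.49 with an array left out, given as a description. Each array was also left out of the comparisons between days, an alternative chosen after seeing the data. The count from day 7 to 30 in seeded BAM then ranged from 1 to 2 (2 with Nr3c1 without seeded replicate 1 or 8 of day 7 or 2 or 7 of day 30). From day 30 to 90 in seeded BAM it ranged from 2 to 4 (2 without seeded replicate 7 of day 30 or 3 of day 90, in both Nr3c2 and Scnn1a). Of the values of single members, 2438 stayed on their side of the threshold and 118 did not or moved by more than the spread.

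With the replicate number as a block, Scnn1a at day 90 had a limma adjusted p of 0.01 and the count was 0. Same-numbered arrays of the 2 grafts had correlations of their deviations from -0.275 to 0.328 (median 0.034), 9 of 32 pairs above 0.1. Pairs with different numbers were not set beside them, so these values cannot show whether same-numbered arrays share more than a number. The block changed no other count of members called. Members near background (Scnn1a at days 90 and 180, the dimmer Nr3c2 probe and in part the dimmer Nr3c1 probe at day 180) have no measured fold there. The 2 scan days differ in background, so steps from day 30 to 90 rest on arrays of unequal sensitivity.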
